A study of Mus musculus with 30 samples.

Results

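The dark zone (DZ) and light zone (LZ) of the germinal centre (GC) were compared in GFP-negative, IgG1-positive B cells, on 6 of the 30 arrays of the series. All arrays whose labels gave an IgG1 GC zone and no GFP were taken, 3 from DZ and 3 from LZ cells. The mice were CeGFP BALB/c animals, whose membrane IgE transcript carries an IRES-GFP knock-in in its 3'UTR. Infection was with the worm Nippostrongylus brasiliensis. On day 10, GC cells (B220+ CD95+ CD138-) were taken by sorting from the mesenteric nodes. DZ cells were IgG1+GFP-CXCR4highCD86low and LZ cells IgG1+GFP-CXCR4lowCD86high. GFP marks IgE cells and those IgG1 cells whose silent heavy chain chromosome has rearranged to the epsilon gene. The GFP-negative cells are therefore IgG1 cells in which that reporter was not seen, in animals that all carry it and were all infected. Each array held RNA of 3 pooled mice, and the 3 arrays of a group came from independent sorts. The GFP-positive DZ and LZ cells of the same experiment, also 3 arrays each, served for comparison. The labels do not say whether DZ and LZ cells, or GFP-positive and GFP-negative cells, of 1 replicate number came from the same mice.

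The GC is the site where activated B cells multiply and mutate their antibody genes. In the dark zone, cells divide and the antibody genes are mutated by the deaminase AID. In the light zone, cells bind antigen on follicular dendritic cells through the B cell receptor, present it on MHC class II and compete for help from T cells, which reaches them largely through CD40. Cells pass between the zones repeatedly, and the chemokine receptor CXCR4 holds them in the dark zone. The costimulatory molecule CD86 is a surface marker of light zone cells.

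The values are log2 signals of 11050 genes. Arrays of 1 zone correlated at 0.954 to 0.973 among the GFP-negative cells. Arrays of different zones correlated at 0.935 to 0.959, so the ranges overlapped. On the first principal component of the 12 zone arrays, every DZ array lay below 0 and every LZ array above 0. GFP-negative DZ replicate 2 stood apart on the second component (29) and LZ replicate 3 on the third (19.9). Results are therefore also given without each array.

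The sort labels were set against the transcripts of the sorted proteins. Cd86 was at 9.35, 9.27 and 9.25 in DZ and at 10.27, 10.48 and 10.27 in LZ cells. The groups did not overlap, and the log2 difference of DZ minus LZ was -1.05 (SE 0.13, adjusted p = 0.00401 in limma). Cxcr4 was at 11.23, 11.51 and 11.24 in DZ and at 11.00, 11.01 and 10.60 in LZ cells. All DZ arrays were above all LZ arrays, with a difference of 0.46 (95% interval 0.11 to 0.81, adjusted p = 0.159) that did not pass the test. Both genes encode sort markers, so these values check the labels only. Of the other surface proteins of the sort, Fas (CD95) differed by -0.38 and Ptprc (the gene of B220) by -0.26, neither called.

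The B cell label was checked with marker lists. The 9 B lineage genes had a mean log2 signal of 11.12 to 11.26 on DZ and 11.13 to 11.40 on LZ arrays, and their summed linear signal was 22532 to 24598 and 22459 to 26981. The 8 GC genes had means of 9.80 to 9.86 and 9.43 to 9.67. Of the other lineages, 10 of 11 T cell markers passed the filter on low signals, with means over all 11 of 5.70 to 6.0 in DZ and 5.65 to 6.10 in LZ. Their summed signal was 724 to 912 and 678 to 892. Cd3e, a CD3 chain of the T cell receptor complex, was at 7.01, 7.71 and 7.24 in DZ and at 7.33, 6.77 and 7.37 in LZ cells, and the groups overlapped. Of the natural killer, macrophage and dendritic, granulocyte and stromal markers on the array, 2 of 10, 3 of 13, 2 of 15 and 6 of 13 passed the filter. Signals of this kind are never 0, so absence cannot be read from them. No marker of these other lineages was called between the zones in limma. At an unadjusted p under 0.05 there were 1 of 10 T cell, 1 of 2 natural killer and 3 of 6 stromal markers tested. There were 0 of 3 macrophage and dendritic and 0 of 2 granulocyte markers, against 1896 of all 11050 genes. The part of these markers in the results was not tested.

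Between the zones, 286 of the 11050 genes (2.59%) differed at an adjusted p under 0.05. Of these, 176 (1.59%) were higher in DZ and 110 (0.995%) in LZ cells, and 117 differed at least 2-fold (71 and 46). At an unadjusted p under 0.05 there were 1896 genes where 552 are expected by chance. All 286 had groups that did not overlap, as had 2519 genes in all (22.8%). Quantile normalization on top of RMA split the calls 131 to 153, and with arrays centred on their medians 269 to 94, so the balance between the directions depends on the scaling. The median difference over all genes was 0.02, against -0.01 and 0.07 under those scalings. The count of 286 became 102, 225 and 130 without DZ replicate 1, 2 or 3, and 193, 101 and 127 without LZ replicate 1, 2 or 3. Of these 6 arrays, DZ replicates 1 and 3 and LZ replicates 2 and 3 each moved it by more than 1.5 times. With the replicate number as a block, 188 genes were called in the fit of 12 arrays and 40 in a fit of only these 6.

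**Figure D1:**
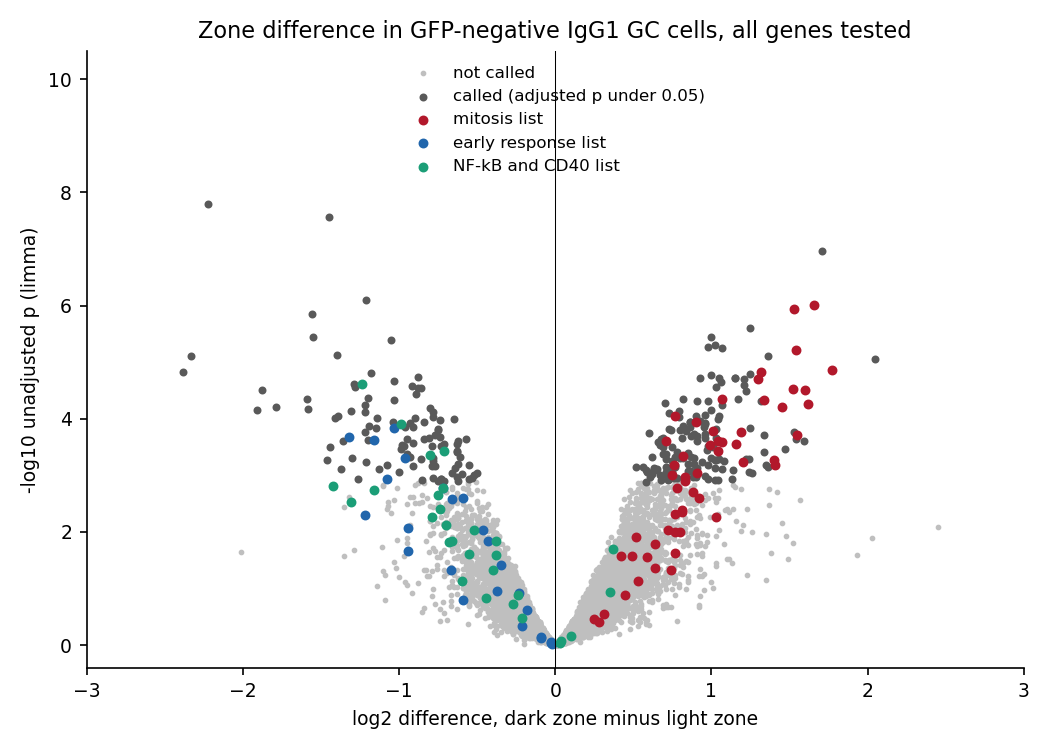
Log2 difference of DZ minus LZ in GFP-negative cells (x axis) against -log10 of the unadjusted limma p (y axis) for the 11050 genes tested, with the mitosis, early response and NF-kB and CD40 lists coloured. All 55 mitosis genes lie to the right of 0 and all 25 early response genes to the left.

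Among called genes whose groups did not overlap, the largest dark zone excess was that of Otub2, a deubiquitinase (chromosome 12, probe set 10397966). It was at 9.03, 9.11 and 8.65 on the DZ arrays and at 6.72, 7.35 and 6.57 on the LZ arrays. The lowest DZ value lay well above the highest LZ value, and the difference was 2.05 on the log2 scale, or 4.14-fold (SE 0.28, adjusted p = 0.00519). Nek2, a kinase that separates centrosomes, followed with 8.39, 8.63 and 9.19 against 7.19, 6.52 and 7.19. Its groups did not overlap either (1.77, SE 0.26, adjusted p = 0.00698). Hmces, which binds abasic sites in single-stranded DNA and shields them, was at 10.53, 10.68 and 10.55 against 9.17, 8.77 and 8.69. DZ arrays agreed closely for it, with an SD of 0.09 against 0.26 in LZ cells, and the difference was 1.71 (SE 0.16, adjusted p = 0.00041).

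The other 9 of these 12 genes were mostly genes of chromosome segregation. They were Cenpf (1.66), a kinetochore protein, the microtubule-depolymerising kinesin Kif2c (1.62), the mitotic kinase Plk1 (1.6), the centromeric histone Cenpa (1.55), Cdc20 (1.54), which activates the anaphase-promoting complex, and the cyclin Ccnb2 (1.53). The remaining 3 were Adhfe1, a mitochondrial transhydrogenase (1.59), Anxa2, a membrane-binding annexin (1.54), and Parpbp, which restrains homologous recombination (1.53). Otub2, Nek2, Hmces, Cenpf, Plk1, Cdc20 and Ccnb2 stayed called under each alternative setting and without each array. Parpbp lost its call without LZ replicate 2 or 3 or any 1 DZ array, Adhfe1 without DZ replicate 1 or any 1 LZ array, Anxa2 without DZ replicate 1 or 3 or LZ replicate 3, and Cenpa without LZ replicate 1 or 3.

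**Figure D2:**
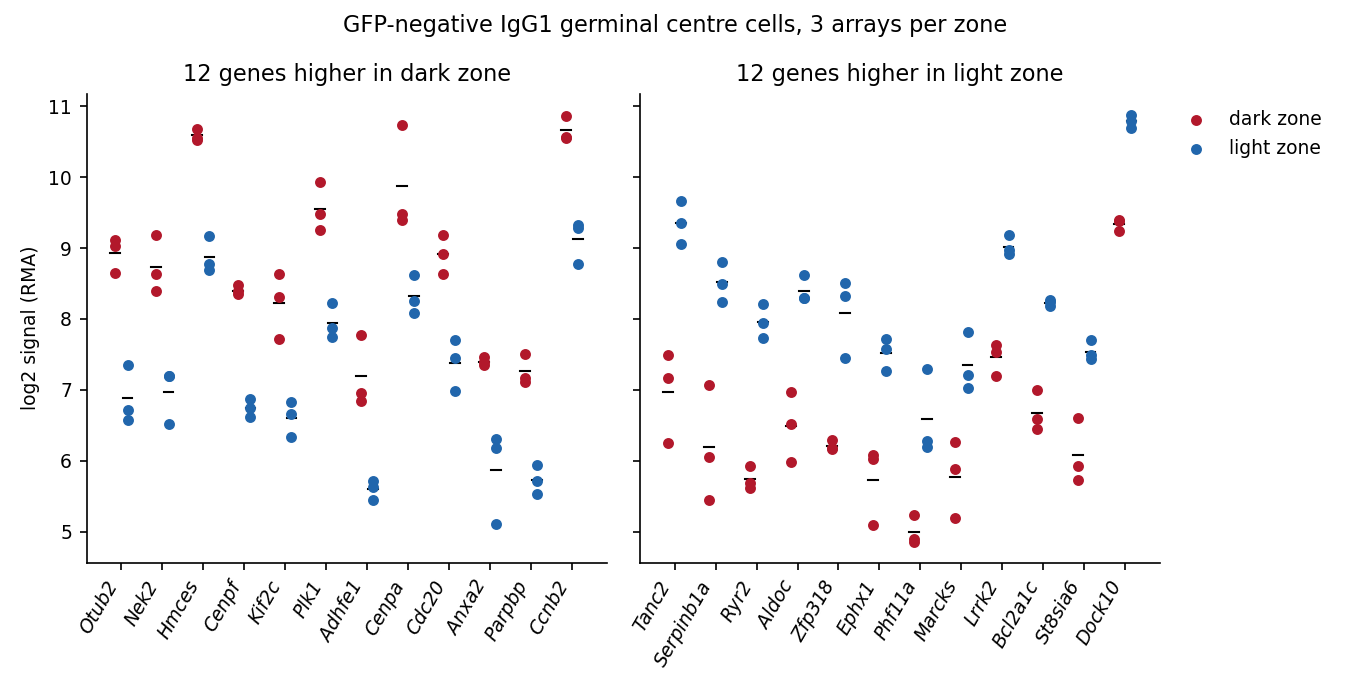
Log2 signal (y axis) of the 12 genes with the largest difference in each direction among called genes whose groups did not overlap, on the 3 DZ (red) and 3 LZ (blue) GFP-negative arrays. Each point is 1 array and each bar a group mean. The genes were chosen for their difference, so the gap between the colours is how they were picked, and the spread within a colour is what the plot adds. Levels of different genes are not comparable.

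Genes of mitosis were the largest group with a dark zone excess. The list held 56 genes, of which 55 were measured and tested. Of these, 32 were called higher in DZ and 0 in LZ cells, against 1.59% and 0.995% of all genes. All 55 had a difference above 0, from 0.25 to 1.77 with a median of 0.88, where 5800 of 11050 genes were above 0 and the median was 0.02. Averaged over the list, the log2 signal was 8.69, 8.44 and 8.86 on the DZ arrays and 7.68, 7.72 and 7.72 on the LZ arrays. DZ replicate 2, the array that stood apart, was the lowest of the DZ arrays and still above each LZ array. A larger share of cells in mitosis and more of these transcripts per cell cannot be told apart in sorted bulk samples.

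The called genes spanned the course of mitosis. Entry into mitosis was represented by Cdc25c (1.52) and Cdc25b, phosphatases that activate CDK1, and by the cyclins Ccnb2 and Ccna2 (0.83, adjusted p = 0.0493). Ccnb2 was at 10.86, 10.56 and 10.57 in DZ and at 8.78, 9.32 and 9.28 in LZ cells, a difference of 1.53 (SE 0.18, adjusted p = 0.00209). Spindle assembly and its checkpoint were represented by Aspm (1.32), Tpx2 (1.01), the kinesin Kif11 (0.91), Bub1b (0.83) and Mad2l1 (0.75). Exit from mitosis was represented by Cdc20 and by the securin gene Pttg1, which was at 9.74, 9.40 and 9.49 in DZ and at 7.59, 8.63 and 8.83 in LZ cells. For Pttg1 LZ replicate 1 was far below the other LZ arrays, and the difference was 1.20 (SE 0.26, adjusted p = 0.0314).

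Cenpf was among the most even of these genes, at 8.35, 8.39 and 8.48 in DZ and 6.62, 6.87 and 6.74 in LZ cells. Mki67, which coats chromosomes in cycling cells, was at 10.86, 10.81 and 10.95 against 10.18, 10.09 and 10.04 (0.77, SE 0.14, adjusted p = 0.0131). Some central mitotic genes did not pass. Aurka was at 8.32, 7.90 and 8.48 against 7.08, 7.43 and 7.09 (1.03, adjusted p = 0.102), with no overlap. Aurkb (0.49) and Cdk1 (0.74) had overlapping groups, and for Cdk1 LZ replicate 2 (9.01) lay above DZ replicate 2 (8.60). The count of 32 became 15, 27 and 14 without DZ replicate 1, 2 or 3, and 21, 16 and 17 without LZ replicate 1, 2 or 3. All 55 differences stayed above 0 each time, and under each alternative setting.

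The promoters of these genes were read for the sequences through which cell cycle genes are known to be timed. The cell cycle genes homology region, with the core TTTGAA, is bound by the MuvB complex, which represses with DREAM in resting cells and activates with B-MYB and FOXM1 in dividing cells. It often works beside CCAAT boxes, the sites of NF-Y. In the RefSeq promoter set of build GRCm38.p6, which runs from 250 bases before to 50 bases after each start, 28 of the 32 called mitosis genes had 30 promoters. TTTGAA on either strand was in 21 of 30 (70%), against 5878 of all 32851 promoters (17.9%). CCAAT on either strand was in 25 of 30 (83.3%) against 37.4%, and both in 63.3% against 6.95%. Matches were counted separately for each motif, and the ends of the motifs can overlap by a letter. A match is a description and not a shown binding site. The stretches below, each of 30 bases and written 5′ to 3′ on the strand of the gene, show the match in capitals for 5 mitosis genes among the 12 with the largest DZ excess. Kif2c holds the match on the other strand, and Ccnb2 also holds a second one farther upstream. No match was found for Nek2, the mitosis gene with the largest difference, in the promoters read.
Cenpf: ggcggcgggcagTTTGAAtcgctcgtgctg
Plk1: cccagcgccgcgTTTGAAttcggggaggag
Cenpa: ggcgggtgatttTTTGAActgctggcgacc
Cdc20: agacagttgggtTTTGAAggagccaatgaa
Ccnb2: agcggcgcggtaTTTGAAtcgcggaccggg
They lie at chr1:189688067-189688096 on the minus strand, chr7:122159453-122159482 on the plus strand, chr5:30666890-30666919 on the plus strand, chr4:118437344-118437373 on the minus strand and chr9:70421533-70421562 on the minus strand. Counted from the annotated start base as 0, the match began at 2 in Cenpf, 30 in Plk1, 16 in Cenpa, -18 in Cdc20 and 4 in Ccnb2.

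In the mitosis genes that were not called between the zones, TTTGAA was in 15 of 20 promoters (75%). It was in 19.7% of the promoters of called DZ genes outside the mitosis list and in 9.48% of those of called LZ genes. The E2F site TTTCGCGC was in 0 of the 30 promoters and in 0.323% of all. Promoters of called and uncalled mitosis genes thus held TTTGAA in like shares, and no test was made of it.

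DNA replication genes had smaller differences. Of 47 tested, 5 were called higher in DZ and 0 in LZ cells, against 1.59% and 0.995% of all genes. On the list 43 lay above 0 and the median was 0.41. Dbf4, the activator of the kinase that fires replication origins, was at 8.64, 8.66 and 8.53 in DZ and at 7.61, 7.58 and 7.63 in LZ cells. The SD was 0.07 in DZ and 0.02 in LZ cells, and the difference was 1.00 (SE 0.13, adjusted p = 0.00401). The other 4 were Rrm1 (0.77), the large subunit of ribonucleotide reductase, Pola1 (0.73), a polymerase catalytic subunit, Dut (0.72), which clears dUTP, and the cyclin Ccne2 (0.71). The helicase genes Mcm2 (0.31), Mcm3 (0.55) and Mcm4 (0.41) were not called. Without DZ replicate 1, 2 or 3 the count of 5 became 2, 4 and 1, and without LZ replicate 1, 2 or 3 it became 3, 1 and 1.

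Of 31 tested regulators of the cell cycle (median 0.22), 3 were called higher in DZ and 0 in LZ cells, against 1.59% and 0.995% of all genes. They were Foxm1, the factor that drives mitotic genes (0.98, adjusted p = 0.0476), the phosphatase Cdkn3 (1.34) and the pocket protein Rbl1 (0.77). Cdkn3 was at 8.26, 8.14 and 8.26 in DZ and at 6.38, 7.33 and 6.93 in LZ cells, spread widely in LZ. The E2F genes E2f1 (0.08), E2f2 (0.32) and E2f3 (0.02) had overlapping groups. Another probe set of E2f3 gave -1.01 (adjusted p = 0.12). Cyclin D genes lay on opposite sides. Ccnd3, the D cyclin on which GC cells depend in the mouse, was at 10.04, 10.01 and 9.94 against 9.80, 9.42 and 9.30 (0.49, adjusted p = 0.115). Ccnd2 was at 6.60, 6.07 and 6.32 against 6.84, 7.25 and 7.15 (-0.75, adjusted p = 0.0764). Neither passed, and neither had overlapping groups. The count of 3 became 0, 4 and 0 without DZ replicate 1, 2 or 3, and 0, 1 and 0 without LZ replicate 1, 2 or 3.

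Genes of somatic hypermutation and DNA repair were led by 3 that act on damaged or broken DNA. Of 35 tested (median 0.22), Hmces, Lig4 and Polh were called higher in DZ and 0 in LZ cells, against 1.59% and 0.995% of all genes. Lig4, the ligase of non-homologous end joining, was at 8.20, 8.0 and 7.94 in DZ and at 6.85, 6.88 and 6.64 in LZ cells (1.25, SE 0.19, adjusted p = 0.00698). Polh, the translesion polymerase that puts mutations at A and T bases in antibody genes, was at 9.81, 9.71 and 9.77 against 8.96, 8.77 and 8.47 (1.03, SE 0.16, adjusted p = 0.00751). For both, DZ arrays were all above LZ arrays by a wide margin. All 3 stayed called without each array. Ung, which removes uracil from DNA (0.09), Apobec3 (0.06) and Polk (-0.37) had overlapping groups and were not called.

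Respiratory chain genes had small differences in 1 direction. None of the 33 tested on this list was called in limma. Of them, 13 had an unadjusted p under 0.05, against 1896 of all 11050 genes. The list does not hold every gene of the chain. Ndufb10, Ndufc2 and Atp5pb, which are not on it, were called higher in DZ cells. All 33 lay above 0, where 5800 of all genes did, from 0.11 to 0.82 with a median of 0.39. Sdhb, a subunit of complex II, had the highest value, at 9.53, 9.16 and 9.92 in DZ and at 8.68, 9.0 and 8.48 in LZ cells (0.82, adjusted p = 0.0868). The lowest DZ array and the highest LZ array, both replicate 2, lay close together. The list mean was 9.62, 9.37 and 9.74 on DZ and 9.27, 9.22 and 9.06 on LZ arrays, with the lowest DZ array again replicate 2. In the other scalings and settings 33 of 33 stayed above 0 and up to 5 were called, and with 1 array left out 30 to 33 stayed above 0 and up to 1 was called.

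**Figure D3:**
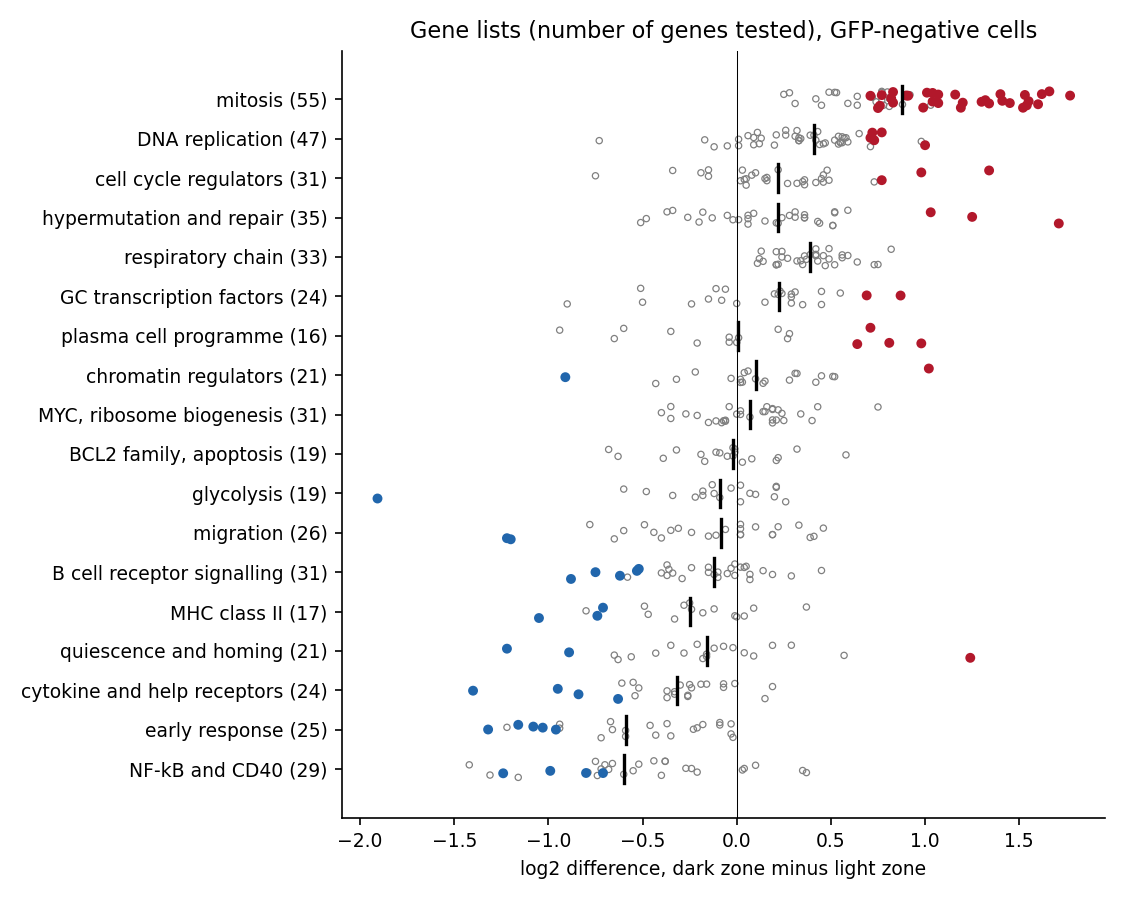
Log2 difference of DZ minus LZ in GFP-negative cells (x axis) for every tested gene of 18 lists, with the number of genes in parentheses. Filled points are genes called higher in DZ (red) or LZ (blue), open points were not called, and bars are list medians. Medians run from 0.88 for mitosis to -0.60 for NF-kB and CD40.

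Among called genes whose groups did not overlap, those with the largest light zone excess were of varied function. Tanc2, a scaffold protein (chromosome 11), was at 7.17, 6.25 and 7.49 in DZ and at 9.66, 9.35 and 9.06 in LZ cells. The groups were far apart, with a difference of -2.38, or 5.22-fold (SE 0.35, adjusted p = 0.00698). Another probe set of Tanc2 gave -1.37 (adjusted p = 0.00637). Serpinb1a, an inhibitor of serine proteases, was at 6.06, 5.44 and 7.07 against 8.24, 8.81 and 8.50 (-2.33, SE 0.32, adjusted p = 0.00478). DZ replicate 3 was far above the other DZ arrays for Serpinb1a and still under all LZ arrays. Ryr2, a calcium release channel of internal stores, was at 5.69, 5.92 and 5.61 against 8.21, 7.94 and 7.73. Its difference of -2.22 (SE 0.17) shared the smallest adjusted p of the comparison, 0.000151, with Dock10. Dock10 was at 9.24, 9.38 and 9.39 in DZ and at 10.69, 10.79 and 10.88 in LZ cells (-1.45, SE 0.12). Replicates of Dock10 spread by no more than an SD of 0.10.

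The other 8 light zone genes were the glycolytic aldolase Aldoc (-1.91), Zfp318, which is needed for IgD on mouse B cells (-1.88), the epoxide hydrolase Ephx1 (-1.79), Phf11a (-1.59), the actin regulator Marcks (-1.58), the kinase Lrrk2 (-1.56), Bcl2a1c (-1.55) and the sialyltransferase St8sia6 (-1.46). Zfp318 was at 6.18, 6.16 and 6.30 against 7.45, 8.51 and 8.32, so its LZ arrays spread more than its DZ arrays. Phf11a was at 5.24, 4.90 and 4.86 in DZ cells, all below the array medians, so the size of its difference is uncertain. Among the GFP-negative arrays Phf11a could exceed those medians only in LZ cells, so its call is a description only. Bcl2a1c, Phf11a and Serpinb1a belong to families of near-identical copies in the mouse, and their probes may also read the other copies. The second probe set of Lrrk2 gave -1.14 (adjusted p = 0.335). St8sia6 lost its call without any 1 LZ array or DZ replicate 1 or 2, and Aldoc without LZ replicate 2.

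Early response genes, which are switched on within minutes to hours of antigen receptor or CD40 signals, lay toward the light zone. Of 32 genes 25 were tested, 0 were called higher in DZ and 5 in LZ cells, against 1.59% and 0.995% of all genes. All 25 had a difference below 0, where 5250 of all 11050 genes had, with a median of -0.59. Egr2, a factor induced by the antigen receptor, was at 8.11, 8.07 and 8.76 in DZ and at 9.20, 9.80 and 9.89 in LZ cells (-1.32, SE 0.26, adjusted p = 0.0182). Nr4a1, an orphan receptor induced the same way, was at 5.56, 5.30 and 5.82 against 6.80, 6.48 and 6.49 (-1.03, SE 0.19, adjusted p = 0.0155). In both genes the highest DZ array was replicate 3, and the groups did not overlap.

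The other 3 were transcription factors Bhlhe40 (-1.16) and Batf (-1.08) and the GTPase-activating protein Tagap (-0.96). Batf was at 6.95, 6.0 and 6.82 against 7.72, 7.95 and 7.35, and its adjusted p of 0.0468 was lost without any 1 array. Cd69, which keeps lymphocytes in the node, was at 7.01, 7.01 and 8.23 against 8.24, 8.61 and 9.04 (-1.22, adjusted p = 0.0969). Its DZ replicate 3 was level with LZ replicate 1. Irf4, a dose-dependent factor of plasma cell fate, was at 6.35, 5.43 and 7.23 against 6.97, 7.67 and 7.21, overlapped and was not called (-0.94, adjusted p = 0.201). Myc, which marks light zone cells chosen for another round of division, was at 9.49, 9.32 and 9.72 against 9.76, 9.89 and 9.95. The groups stood next to each other without overlap (-0.35, adjusted p = 0.256). Egr1 (-0.67), Egr3 (-0.59) and Fos (-0.09) were not called. Without DZ replicate 1, 2 or 3 the count of 5 became 0, 1 and 3, and without LZ replicate 1, 2 or 3 it became 2, 2 and 1. Up to 4 of the 25 rose above 0 when an array was left out and up to 3 under another setting.

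The NF-kB and CD40 list had 0 of 29 tested genes called higher in DZ and 4 in LZ cells, against 1.59% and 0.995% of all genes. It had 24 genes below 0 and a median of -0.60. Ccl22, a chemokine that draws helper T cells, was at 4.92, 4.90 and 5.03 in DZ and at 6.11, 6.27 and 6.20 in LZ cells. All 3 DZ values lie below the array medians of 5.29 to 5.37, so Ccl22 passed the filter on low signals through its LZ arrays, and the size of its fitted difference of -1.24 (SE 0.19, adjusted p = 0.00742) is uncertain. Cd83, which keeps MHC class II and CD86 on the surface, was at 10.70, 10.87 and 11.02 against 11.93, 12.07 and 11.56 (-0.99, SE 0.18, adjusted p = 0.0143). Birc3, a ubiquitin ligase of the pathway (-0.80), and the costimulatory receptor Slamf1 (-0.71) were also called. The pathway's own subunits and inhibitors were not called, with Nfkb2 at -0.72 (adjusted p = 0.0564), Rel at -0.38, Nfkbia at -0.79 and Cd40 itself at -0.74. Rela overlapped between the zones (-0.40). The count of 4 became 1, 3 and 3 without DZ replicate 1, 2 or 3, and 4, 2 and 4 without LZ replicate 1, 2 or 3. Ccl22 stayed called each time, but it entered the test through the zone where it was high, so its call is a description only. Under the filter at 6 arrays it was not tested, and 3 of 28 genes were called higher in LZ cells.

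In the 7 genes of these calls that had promoters in RefSeq (11 promoters), an NF-kB consensus site and the EGR site GCGTGGGCG were in 0 of 11, on either strand. They were in 1.47% and 0.612% of all promoters. These windows are short, and the absence of the letters from them says nothing of the factors.

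The list of receptors for T cell help and cytokines also holds ligands and signalling genes. Of its 24 tested genes, 4 were called lower in DZ cells and 0 higher (median -0.32, 22 below 0). Of all genes, 0.995% were called lower and 1.59% higher. Pdcd1lg2, the gene of the PD-1 ligand PD-L2, was at 6.20, 6.01 and 6.25 in DZ and at 7.26, 7.59 and 7.81 in LZ cells (-1.40, SE 0.19, adjusted p = 0.00478). It stayed called in each setting and without each array. Tnfrsf14, the receptor HVEM, was at 8.21, 8.19 and 8.31 against 9.17, 9.20 and 9.17 (-0.95, SE 0.20, adjusted p = 0.0272). Its replicates agreed more closely than its SE, which borrows spread from the GFP-positive arrays, and the call was lost without any 1 array. Ifngr2, a chain of the interferon-gamma receptor (-0.84), and Stat3, which relays IL-21 (-0.63), were also called. Il4ra (-0.54) and Il21r (-0.37), receptors of the 2 main helper cytokines of GC cells, overlapped and were not called. Without DZ replicate 1, 2 or 3 the count of 4 became 3, 2 and 2, and without LZ replicate 1, 2 or 3 it became 2, 1 and 1.

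Of 17 MHC class II and antigen presentation genes tested, 3 were called lower in DZ cells and 0 higher, against 0.995% and 1.59% of all genes. One of these calls was the sort marker Cd86. Ciita, the master activator of class II transcription, was at 9.66, 9.68 and 9.65 in DZ and at 10.19, 10.59 and 10.32 in LZ cells (-0.71, SE 0.14, adjusted p = 0.0207). Ifi30, a thiol reductase that opens antigen in lysosomes, was at 11.02, 10.62 and 10.96 against 11.59, 11.60 and 11.64 (-0.74, SE 0.13, adjusted p = 0.0136). In both genes 1 zone was very even, DZ for Ciita with an SD of 0.02 and LZ for Ifi30 with an SD of 0.03. Cd74, the invariant chain (-0.12), and H2-Aa (-0.18) and H2-Ab1 (-0.28), class II chains, had overlapping groups. The count of 3 became 2, 3 and 2 without DZ replicate 1, 2 or 3, and 3, 1 and 2 without LZ replicate 1, 2 or 3.

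B cell receptor signalling had 5 of 31 genes called lower in DZ cells and 0 higher, against 0.995% and 1.59% of all genes. The median of the list was -0.12. Cr2, the complement receptor that lowers the threshold for antigen, was at 9.60, 9.93 and 9.90 in DZ and at 10.70, 10.74 and 10.62 in LZ cells (-0.88, SE 0.13, adjusted p = 0.00698). The inhibitory receptors Cd72 (-0.75) and Cd22 (-0.52), the adaptor Bank1 (-0.62) and the kinase Prkcb (-0.53) made up the rest. Cd22 and Prkcb lost their calls without any 1 array. The receptor's signalling chains Cd79a (0.07) and Cd79b (-0.05) overlapped between the zones. The 5 calls thus held a coreceptor, 2 inhibitory receptors, an adaptor and a kinase. Without DZ replicate 1, 2 or 3 the count became 1, 2 and 2, and without LZ replicate 1, 2 or 3 it became 2, 1 and 2.

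Of 26 migration genes (median -0.09), 2 were called, both lower in DZ cells, where 0.995% of all genes were called lower and 1.59% higher. Gpr183 (EBI2), the oxysterol receptor that draws B cells toward the outer follicle, was at 7.42, 6.85 and 7.81 in DZ and at 8.29, 8.73 and 8.74 in LZ cells (-1.22, SE 0.23, adjusted p = 0.0164). S1pr3, a sphingosine phosphate receptor, was at 7.41, 7.95 and 7.95 against 9.08, 9.04 and 8.79 (-1.20, SE 0.20, adjusted p = 0.00949). S1pr3 stayed called without each array, and Gpr183 lost its call without DZ replicate 1 or LZ replicate 2 or 3. S1pr2, which confines GC cells (0.22), and Cxcr5, which leads cells to the light zone (-0.44, adjusted p = 0.279), overlapped. Of 21 quiescence and homing genes, Fcer2a, the gene of the IgE receptor CD23, was called lower (-0.89) beside Gpr183, and Cd55, which shields cells from complement, was called higher in DZ cells (1.24). Fcer2a was at 10.91, 10.88 and 11.12 against 11.93, 12.05 and 11.61 (SE 0.14, adjusted p = 0.0087). Cd55 was at 6.28, 7.12 and 6.15 against 5.04, 5.33 and 5.46. For Cd55, LZ replicates 1 and 2 lie below their array medians (5.37 and 5.36), so the size of its difference is uncertain. Its call ended without DZ replicate 1 or 2 or any 1 LZ array.

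The list of GC transcription factors also holds GC genes of other kinds. Of its 24 tested genes, 2 were called higher in DZ and 0 in LZ cells, against 1.59% and 0.995% of all genes. Differences on the list ran from -0.90 to 0.87, and 8 of the 24 had an unadjusted p under 0.05, against 1896 of all 11050 genes. Neither of the 2 called genes encodes a transcription factor. They were Gcsam, a GC adaptor that restrains migration (0.87, SE 0.17, adjusted p = 0.0182), and Nuggc, a GTPase found in GC cells (0.69, adjusted p = 0.0184). Bcl6, the master repressor of the GC, was at 11.15, 10.97 and 11.18 in DZ and at 11.06, 10.82 and 10.56 in LZ cells, overlapped and was not called (0.29, 95% interval -0.02 to 0.60, adjusted p = 0.325). Foxo1, which sustains the dark zone programme in the mouse, was at 8.82, 8.92 and 8.98 against 8.60, 8.66 and 8.57. Its groups did not overlap, and the difference of 0.29 was not called (adjusted p = 0.306). Bach2 (0.29) and Pax5 (0.00) were not called. The 2 calls became 0, 1 and 0 without DZ replicate 1, 2 or 3, and 1, 1 and 0 without LZ replicate 1, 2 or 3. The list also had 0 calls with the replicate number as a block in the fit of 12 arrays, and in the fits of only 6 arrays.

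Among 21 chromatin regulators, Smarca4, the ATPase of the BAF remodelling complex, was at 10.25, 10.29 and 10.41 in DZ and at 9.47, 9.19 and 9.25 in LZ cells. It was called higher (1.02, SE 0.13, adjusted p = 0.00448) and stayed called without each array. Tet2, a DNA demethylase, was called lower (-0.91, adjusted p = 0.0345), at 5.32, 5.22 and 5.28 against 6.63, 5.75 and 6.18. Its DZ values lie at or below the array medians, so the size of its difference is uncertain, and its call was lost without LZ replicate 1 or 3 or any 1 DZ array. Among the GFP-negative arrays Tet2 was clearly above the medians only in LZ cells, so its call is a description only. Ezh2, the histone methyltransferase that GC cells need, did not overlap between the zones and was not called (0.42, adjusted p = 0.258). The list had 1 call in each direction, where 1.59% of all genes were called higher in DZ and 0.995% in LZ cells.

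The plasma cell list had 4 of 16 genes called higher in DZ cells and 0 in LZ cells, against 1.59% and 0.995% of all genes. Its median was 0.00, with 8 genes on each side of 0. Jchain, which joins secreted IgM and IgA units, was at 10.69, 10.83 and 10.99 in DZ and at 9.89, 9.86 and 9.82 in LZ cells (0.98, SE 0.13, adjusted p = 0.00448). Mzb1, a chaperone of antibody assembly, was at 11.11, 10.76 and 11.18 against 10.32, 10.20 and 10.09 (0.81, SE 0.16, adjusted p = 0.0184). The surface receptor Slamf7 (0.71) and Xbp1, which expands the secretory pathway (0.64, adjusted p = 0.0366), were also called. Prdm1, the repressor that sets plasma cell fate, was under the filter and not tested, at 4.56, 4.56 and 4.70 against 5.00, 5.2 and 4.88. The sort took CD138-negative cells per the labels, and whether plasma cells had a part in these values was not tested. Sdc1, the gene of CD138, was also under the filter and not tested. Jchain stayed called without each array. The count of 4 became 1, 3 and 1 without DZ replicate 1, 2 or 3, and 2, 1 and 1 without LZ replicate 1, 2 or 3.

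Several lists had 0 or 1 call. Of all 11050 genes, 1896 had an unadjusted p under 0.05. Of 19 BCL2 family and apoptosis genes none was called in limma (4 at an unadjusted p under 0.05, median -0.02), with Bcl2 at -0.63 (adjusted p = 0.0747), Bcl2l1 at -0.68 and Mcl1 at 0.03. Bcl2 was at 6.48, 6.21 and 6.12 in DZ and at 7.0, 6.81 and 6.91 in LZ cells, without overlap. Of 31 MYC and ribosome biogenesis genes none was called either (3 at an unadjusted p under 0.05), and the median of 0.07 crossed 0 under another setting (-0.02). Of 19 glycolysis genes Aldoc alone was called, higher in LZ cells, as were 0.995% of all genes.

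**Figure D4:**
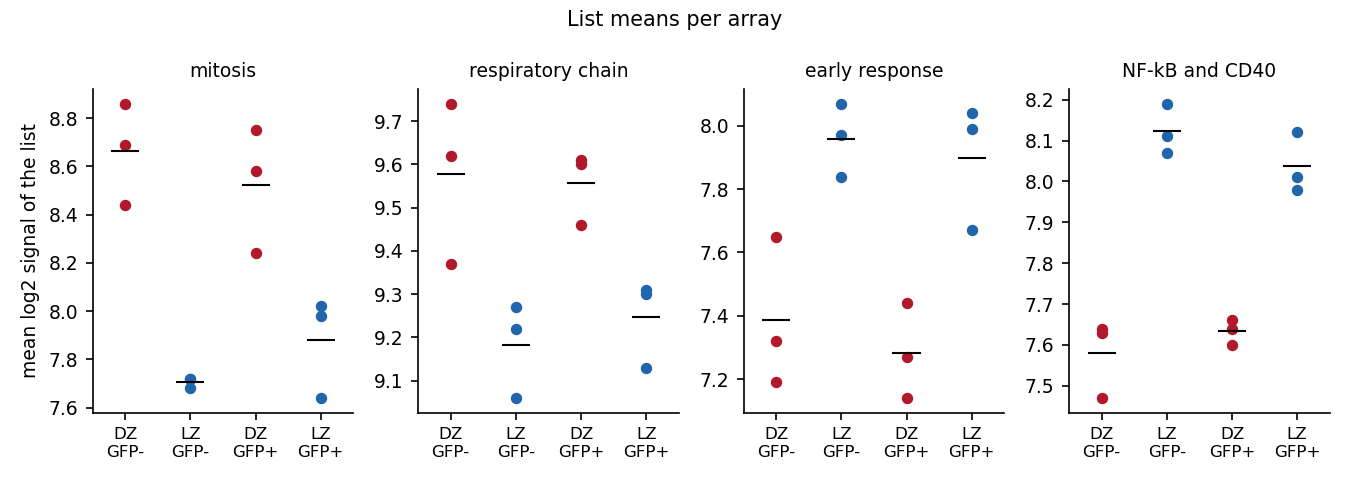
Mean log2 signal of 4 gene lists (y axis, a separate scale in each panel) on each of the 12 arrays of the zone experiment, by zone and GFP class. Points are arrays and bars are group means. In GFP-negative cells the mitosis mean is 8.44 to 8.86 in DZ and 7.68 to 7.72 in LZ, and the early response mean is 7.19 to 7.65 and 7.84 to 8.07.

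The zone difference of GFP-negative cells was then set beside that of GFP-positive cells, which were measured on other arrays. In GFP-positive cells 135 of 11050 genes (1.22%) were called, 53 (0.48%) higher in DZ and 82 (0.742%) in LZ cells. Leaving out any 1 of the 6 GFP-positive arrays brought the count to 51 to 88. Both classes called 89 genes in the same direction, 37 higher in DZ and 52 in LZ cells, which is 31.1% of the GFP-negative calls and 65.9% of the GFP-positive calls. Of the 286 genes called in GFP-negative cells, 276 (96.5%) had the same sign in GFP-positive cells, against 7113 of 11050 (64.4%). The genes called higher in DZ had a median of 0.93 in GFP-negative and 0.53 in GFP-positive cells, and those called higher in LZ -0.93 and -0.81. The first value of each pair comes from the contrast that chose the genes and is a description. Chosen on GFP-positive cells instead, DZ genes had medians of 0.98 and 0.99 and LZ genes -0.76 and -0.97.

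No gene passed the test of the difference between the 2 zone differences in limma, with 543 genes at an unadjusted p under 0.05 where 552 are expected, and a smallest adjusted p of 0.495. The same held for GFP-negative against GFP-positive cells within DZ (583 genes, smallest adjusted p 0.926) and within LZ (495 genes, 0.96). With 3 arrays per group this does not show that the zones differ equally. For Plk1 the 95% interval of the difference was -0.26 to 1.29, and for Cd86 it was -0.31 to 0.52. In the mitosis list the zone difference had a median of 0.88 in GFP-negative and 0.61 in GFP-positive cells, with 32 and 8 genes called. It was larger in GFP-negative cells for 52 of 55 genes (median 0.28), against 6095 of 11050 genes (median 0.04), and no single gene passed. The list means of GFP-positive LZ replicates 1 and 3 (8.02 and 7.98) were above those of all GFP-negative LZ arrays, and that of GFP-positive LZ replicate 2 (7.64) was below them. On DZ arrays the list means were 8.69, 8.44 and 8.86 in GFP-negative and 8.75, 8.24 and 8.58 in GFP-positive cells, with overlap.

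**Figure D5:**
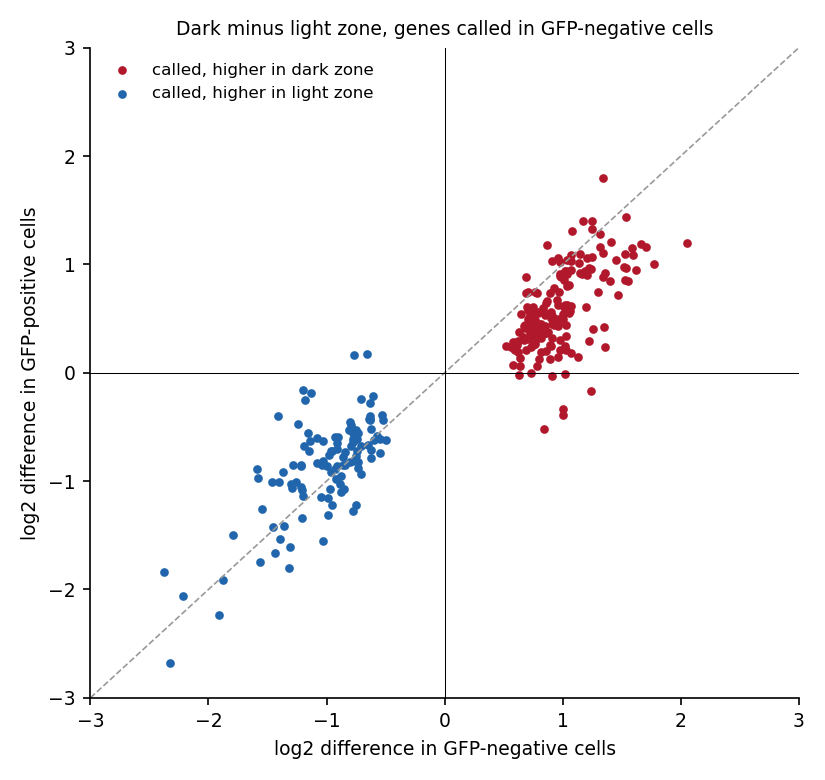
Log2 difference of DZ minus LZ in GFP-negative cells (x axis) and in GFP-positive cells (y axis) for the 286 genes called in GFP-negative cells. The dashed line marks equal differences. Of the 286 points, 276 lie in the 2 quadrants of equal sign.

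The smallest p of that test belonged to Polr2f, a small subunit shared by the RNA polymerases. In GFP-negative cells it was at 8.66, 8.22 and 8.40 in DZ and at 7.71, 7.54 and 7.51 in LZ cells (0.84, adjusted p = 0.0159). In GFP-positive cells it was at 8.03, 7.97 and 7.61 in DZ and at 8.32, 8.49 and 8.36 in LZ cells (-0.52, adjusted p = 0.159). The groups did not overlap in either class and the order was opposite, with a difference of 1.36 (unadjusted p = 4.48e-05, adjusted p = 0.495 in limma) that failed the correction. Uxt, a prefoldin-like chaperone, had 1.33 (adjusted p = 0.689), and its second probe set gave a zone difference of 1.13 in GFP-negative cells (adjusted p = 0.0673). Usp30, a mitochondrial deubiquitinase, had 1.39 (adjusted p = 0.986). In the other direction the smallest p-values were those of 0610012G03Rik, Ubqln4 and Rab2b, at -1.07, -0.84 and -0.73, each with an adjusted p of 0.986. Ccl22 differed between the zones by -1.24 in GFP-negative and by -0.47 in GFP-positive cells (adjusted p of the difference = 0.986). Hmces, Lig4, Polh, Ryr2, Dock10, Cd86 and Jchain were called in both classes in the same direction.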

How the data were processed

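RNA of sorted B cells was amplified from 2 ng by NuGEN SPIA, and 5 ug of cDNA was labelled and hybridised to Affymetrix arrays, per the labels' protocols. The authors deposited log2 values of RMA, run in R 2.15.2 as the submitters' processing notes record. Array dates and whether all 30 arrays were normalized together are not given in the sources used here. Of 34760 probe sets, 21640 had 1 gene symbol in the platform annotation, 1321 several and 11799 none. Genes with several such probe sets (954 of 19937) kept the probe set whose 30-array mean was highest. Genes entered the test when they exceeded the array median (5.29 to 5.37) on at least 3 of the 12 zone arrays, which gave 11050 genes. Limma 3.58.1 in R 4.3.3 fitted 4 group means to the 12 arrays, with eBayes and Benjamini-Hochberg adjustment over all genes tested. Called genes had an adjusted p under 0.05. Differences are of log2 signals, and the level of 1 probe set says nothing about another gene's. Summaries and plots used Python 3.11.15 with pandas 2.3.3, numpy 2.4.6 and matplotlib 3.10.9.

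In simulated data of 11050 genes, 61 of 100 genes changed by 1 on the log2 scale were called and 3 of 100 changed by 0.5, with 6 false calls. The values were independent normal draws with the spread of each gene. They held no shifts of whole arrays and no link between same-numbered arrays, so recovery and false calls in the real data can differ. The 3 arrays per group limit the precision. Within a group the arrays are pools from separate sorts. Whether same-numbered DZ and LZ arrays share mice or a sort is not given in the labels, and the fit treats all 12 arrays as independent.

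The 26 gene lists (621 genes, 584 on the array, 519 tested) and the genes compared were chosen with earlier results of these data known. The genes named were the 12 called genes with the largest difference in each direction and no overlap, up to 4 called and 3 uncalled genes of each list, a set of GC genes, and the 3 smallest p-values in each direction of the test between GFP classes. Other genes were chosen after their values were seen. Promoter sequences came from RefSeq, build GRCm38.p6. Alternatives were another scaling, other filters, array weights, a trended and robust fit, every probe set on its own, a fit of 6 arrays, a replicate block and leaving out each array.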

Additional observations from a re-analysis of the deposited data

How the results depend on the processing

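Without 1 array, the GFP-negative count of 286 ranged from 101 to 225, with 60 to 159 genes higher in DZ and 40 to 67 higher in LZ cells, and the GFP-positive count of 135 from 51 to 88. With array weights 475 genes were called (315 higher in DZ), and with arrays centred on their medians 269 were higher in DZ. With only the 6 GFP-negative arrays in the fit the count was 144 (90 and 54). The replicate block gave 188 (116 and 72) in the 12-array fit, 40 (24 and 16) in the fit of 6 arrays and 79 in GFP-positive cells. Deviations from the group means correlated at 0.002 to 0.199 in the 18 same-number pairs of arrays, 3 of them above 0.1, and at -0.137 to 0.041 in the 36 other pairs. All 12 arrays correlated best, on average, with arrays of their own number, which is a hint from the data that numbers share something the labels do not state. A call lost under the block is not read as a smaller effect. Of the 286 genes, 160 were shared with the block in the 12-array fit and 234 with quantile normalization. The fit of 6 arrays shared 131, and the block in that fit shared 36. Under the block in the fit of 6 arrays the mitosis list had 10 calls instead of 32. The hypermutation and NF-kB lists had 2 each, and the cytokine receptor and glycolysis lists 1 each. Replication, cell cycle regulator, early response, B cell receptor, MHC class II, migration, quiescence, GC factor, chromatin and plasma cell lists had 0. Smarca4, Jchain, Polh and S1pr3, which stayed called without each array, were among the genes that lost their calls under the block in the fit of 6 arrays. The test between GFP classes called 0 genes in each alternative. Of 69 called genes among those named, 18 stayed called in every alternative, 4 uncalled genes were gained in some, and 0 changed sign while called. Differences of 0.5 on the log2 scale are mostly below what 3 arrays can show.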

Other observations

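Further called genes belonged to no list and were chosen after their values were seen. Tgfbr1, a receptor of TGF-beta, was at 8.64, 8.79 and 8.77 in DZ and at 7.52, 7.38 and 7.54 in LZ cells, far apart in each array (1.25, SE 0.15, adjusted p = 0.00339 in limma), and was called in GFP-positive cells too (1.07). Ackr4, a receptor that removes chemokines, was at 7.42, 7.11 and 6.98 against 5.86, 5.69 and 5.98 (1.32, SE 0.22, adjusted p = 0.00949). Single genes of redox defence were called higher in DZ cells, namely Gclc, which makes the precursor of glutathione (1.47), Selenoh (1.15), Prdx1 (0.67), Txn1 (0.69) and catalase, Cat (0.69). Called in the same direction were the mitochondrial genes Ndufb10 (0.91), Ndufc2 (0.68), Atp5pb (0.80, and 0.47 by another probe set) and the ribosomal genes Mrpl11 (0.96) and Mrpl34 (0.90). These genes were picked, members going the other way were not counted, and no enrichment was tested.

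In LZ cells, Samsn1, an adaptor that dampens B cell activation, was at 9.83, 9.79 and 9.69 against 8.43, 8.49 and 8.78 in DZ cells (-1.21, SE 0.13, adjusted p = 0.00209). Cytokine receptor genes Il5ra (-1.41) and Lifr (-1.44) and the kinase Jak2 (-0.80) were called higher there. Il5ra differed by -0.40 in GFP-positive cells, where it was not called. Smarca2, the alternative ATPase of the BAF complex, differed by -1.03 (adjusted p = 0.00949), while Smarca4 differed by 1.02.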
